A study of Homo sapiens with 12 samples.

Results

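The 26S proteasome degrades proteins that carry ubiquitin chains. A barrel-shaped 20S core, built from alpha and beta rings, holds the proteolytic sites, and a 19S cap with an ATPase base and a lid recognises, deubiquitinates and unfolds the substrate. Dedicated chaperones assemble each part. Alternative core subunits and activators replace or add to the standard ones, some of them in immune cells, thymus or testis. The genes examined here were those whose symbol starts with PSM followed by a letter from A to G and a digit, as parsed from the guide names. The rule found 196 of 71090 guides, 4 for each of 49 genes out of 18053 in the library. One of the 49, PSMC3IP, matched by name only, since it encodes a meiotic recombination factor.

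The guides came from the TKOv3 library, a pooled set of Cas9 knockout guides delivered by lentivirus, and sequencing counted how often each guide was carried in the cell pool. HCC1806 is a triple-negative breast cancer cell line and MIA PaCa-2 a pancreatic cancer cell line, and all pools, controls included, carried the library and had been selected with puromycin. The first HCC1806 screen had a start library at passage 0, 2 libraries grown in 0.1% DMSO and 2 grown in 500 nM INX-315, an inhibitor of the cell cycle kinase CDK2. The second HCC1806 screen had 1 start library at passage 0, 1 DMSO library and 1 library grown in palbociclib, an inhibitor of CDK4 and CDK6. The treatment protocol gives 500 nM palbociclib for HCC1806, whereas the sample labels read 250 with a different unit. The MIA PaCa-2 screen had a start library at passage 1 and 1 library each in DMSO, 500 nM INX-315 and 250 nM palbociclib. The treated and DMSO libraries are labelled passage 8, whereas the methods describe up to 5 passages. Each pool is a population of many knockout clones, and nothing in the labels says that replicates came from separate infections, so the p-values measure only the spread between these libraries.

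The 12 libraries held between 24946956 and 58875726 counts. One library stood apart, DMSO 1 of the HCC1806 INX-315 screen. Over 1287 guides against olfactory receptor genes, which these cells should not need, the SD of its log2 ratio to the start library was 1.62, against 0.70 to 0.72 for the other passage 8 libraries of that screen. DMSO 2 and both INX-315 libraries lay closer to each other, with SDs of 0.34 to 0.50, than any of them lay to DMSO 1, with SDs of 1.69 to 1.71. No pair of libraries of the same screen agreed within sampling noise. In the MIA PaCa-2 screen the INX-315 library had the widest spread against its start, with an SD of 0.85 against 0.55 for both other libraries. These spreads are given beside the results they touch, and their part in those results was not tested.

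Guides against the standard subunits of the proteasome were depleted from the untreated pools of both cell lines. For each gene, the change from the start was the median over its guides of the log2 ratio of its share of the library, in counts per 1000000 library counts (CPM), with 0.5 CPM added, and a change of -1 or lower was counted as a loss. The name rule covers 31 standard subunits of the 20S core and 19S cap and leaves out cap subunits with other symbols. All 31 lost guides in all 3 HCC1806 DMSO libraries, and 29 of 31 did so in the MIA PaCa-2 DMSO library. Of the cap subunits outside the rule, the ubiquitin receptor ADRM1 had changes of -1.26, -0.93, -0.63 and -0.13 in DMSO 1, DMSO 2, the palbociclib screen and MIA PaCa-2, so it was lost in DMSO 1 alone, and the lid subunit SHFM1, now named SEM1, had -4.23, -2.37, -1.67 and -1.49. The median change of these 31 genes was -4.12 in DMSO 1 and -3.59 in DMSO 2 of the INX-315 screen, -3.48 in DMSO of the palbociclib screen and -2.24 in MIA PaCa-2. Over all genes these medians were -0.83, -0.09, -0.08 and -0.04. Ribosomal protein genes, another set that growing cells need, had medians of -4.30, -3.60, -3.37 and -2.10. Olfactory receptor genes had medians of -0.53, 0.03, 0.09 and 0.09.

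Among all 49 proteasome genes, 40 were lost in DMSO 1 of the INX-315 screen, where 43.9% of all genes were. In DMSO 2 of that screen 36 were lost against 13.4% of all genes, in DMSO of the palbociclib screen 37 against 13.9%, and in MIA PaCa-2 DMSO 31 against 8.69%. A loss in all 3 HCC1806 DMSO libraries was seen for 35 of the 49 genes and 10.1% of all genes, and a loss in all 4 DMSO libraries for 31 of the 49 and 6.91% of all genes. The share in DMSO 1 was high for genes of every kind, since 108 of 339 olfactory receptor genes were also counted as lost there, compared with 3 in DMSO 2.

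The loss was also seen at the level of single guides. Of 124 guides against the 31 standard subunits, 81 were at -1 or lower in all 4 DMSO libraries, and 23 of the 31 genes had at least 3 of their 4 guides there in every DMSO library. Of the 72 guides against the other 18 genes, 7 were at -1 or lower in all 4. Over all guides the share at -1 or lower was 47.4% in DMSO 1, 19.4% in DMSO 2, 20.3% in the palbociclib screen and 12.8% in MIA PaCa-2. These are shares of single libraries, and no share over all guides or all genes is given here for the counts in all 4. Only 2 of the 124 guides stayed above -1 in all 4. One of them, against PSMA7, had just 4, 6 and 10 counts in the start libraries and could not show a loss of that size. The other, against PSMD2 at chr3:184017126-184017145 on the plus strand, went from 355 to 168 and 184 counts in the INX-315 screen. It went from 312 to 180 in the palbociclib screen and from 606 to 581 in MIA PaCa-2. Its changes of -0.93, -0.77 and -0.88 in HCC1806 were just short of the threshold, beside -0.10 in MIA PaCa-2. Coordinates are those of the guide names, and the sources used here name no genome build for them. Only 18 of the 196 start positions lie inside the span of their gene in GRCh38, so they are not positions in that build.

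The alpha ring forms the gate of the 20S core, and its 7 genes had median changes of -4.54, -4.27, -4.26 and -2.53 in DMSO 1, DMSO 2, the palbociclib screen and MIA PaCa-2. PSMA6 had the lowest fitted value of the ring. Its 4 guides together held 1940 counts at the start of the INX-315 screen and 1 and 11 counts in the DMSO libraries, and 1440 counts at the start of the palbociclib screen and 12 in DMSO. In MIA PaCa-2 the same guides went from 2574 to 328 counts. The highest remainder was that in MIA PaCa-2.

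PSMA2, also an alpha subunit, had the mildest fitted loss of the ring and differed between libraries. Its guides went from 43.1 CPM at the start of the INX-315 screen to 0 counts in DMSO 1 and 11.7 CPM in DMSO 2, and from 35.2 to 1.67 CPM in the palbociclib screen. The remainder in DMSO 2 came mostly from the guide at chr7:42971746-42971765, with 228 counts there after 350 at the start. The same guide had 186 and 158 counts in the 2 INX-315 libraries and none in DMSO 1.

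The proteolytic sites of the standard core lie in beta subunits, PSMB6 the caspase-like, PSMB7 the trypsin-like and PSMB5 the chymotrypsin-like activity, the last of these being the main target of proteasome inhibitors such as bortezomib. PSMB7 guides went from 1942 counts to 24 and 14 in the INX-315 screen, from 1549 to 0 in the palbociclib screen, where a count of 0 allows up to 0.0865 CPM, and from 2201 to 109 in MIA PaCa-2. PSMB5 guides went from 50.4 CPM to 15.5 and 4.78 CPM in the INX-315 screen, from 46.4 to 4.61 CPM in the palbociclib screen and from 43.7 to 13.2 CPM in MIA PaCa-2. PSMB6 guides kept more, with 69.5 CPM going to 22.8 and 15.6 CPM, 71.3 to 23.4 CPM and 75.0 to 32.7 CPM. By the median change over guides, PSMB7 was lowest, PSMB5 next and PSMB6 highest in all 4 DMSO libraries, though PSMB7 and PSMB5 lay close in DMSO 1, at -4.06 and -3.94, and PSMB5 and PSMB6 in the palbociclib screen, at -3.27 and -3.15, and in MIA PaCa-2, at -1.55 and -1.48. For PSMB6 the guide at chr17:4701709-4701728 had 637 counts in DMSO of the palbociclib screen after 530 at the start.

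The 6 ATPases of the 19S base unfold the substrate and push it into the core. Their median changes were -4.20, -3.39, -3.47 and -1.94 in the same order of libraries. PSMC5 had the lowest fitted value, with 59.7 CPM going to 2.24 and 10.9 CPM, 40.5 to 0.202 CPM and 37.6 to 6.23 CPM. PSMC3 had the highest, with 31.0 CPM going to 0.848 and 10.5 CPM, 23.9 to 7.70 CPM and 26.6 to 5.37 CPM. In the remaining part of the base, the ubiquitin receptor PSMD4 had the lower value, with 42.4 CPM going to 3.42 and 0.454 CPM, 32.9 to 2.88 CPM and 40.3 to 5.55 CPM. The scaffold PSMD2 went from 55.5 to 7.73 and 20.03 CPM, from 47.4 to 9.57 CPM and from 44.8 to 20.3 CPM. For each of these 4 genes every DMSO library was below every start library. They were picked by their fitted values in these same libraries, and the share of all genes with such a separation is not given here.

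The lid removes ubiquitin chains before degradation, through the metalloprotease PSMD14. Its 8 genes had median changes of -4.10, -3.56, -3.42 and -1.71. PSMD13, a structural lid subunit, had the lowest fitted value, with 64.6 CPM going to 2.92 and 2.30 CPM, 40.1 to 0.951 CPM and 55.8 to 5.50 CPM. PSMD11, another structural subunit, had the highest, and DMSO 1 went the other way, with 54.2 CPM going to 78.1 CPM there and 11.7 CPM in DMSO 2. The high value came from 1 guide, at chr17:30774043-30774062, which had 425 counts at the start, 2073 in DMSO 1 and 97 in DMSO 2. The other 3 PSMD11 guides had between 22 and 181 counts in DMSO 1.

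The guides against PSMD14 split by position. Those at chr2:162227719-162227738, chr2:162227720-162227739 and chr2:162227779-162227798 had at most 2 counts in any HCC1806 DMSO library. The first and second of them overlap in all but 1 base and are close to a repeat of 1 measurement. The remaining guide, at chr2:162175343-162175362, went from 496 to 739 counts in the palbociclib screen, from 515 to 350 and 280 in the INX-315 screen and from 876 to 357 in MIA PaCa-2. The median over guides was -4.30, -4.30, -3.87 and -2.92, while the summed CPM went only from 37.9 to 21.3 in the palbociclib screen.

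The lid genes PSMD6 and PSMD8, both structural subunits, did not reach -1 in MIA PaCa-2 DMSO. PSMD6 had changes of -3.92, -1.70 and -2.22 in the HCC1806 DMSO libraries and -0.59 in MIA PaCa-2, and PSMD8 had -3.99, -3.01 and -3.70 against -0.65. In MIA PaCa-2 INX-315 the values were -1.48 and -1.08, and in palbociclib -0.59 and -1.17, on either side of the threshold.

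The 20S assembly chaperones with a PSMG symbol were lost in HCC1806 and varied in MIA PaCa-2, whereas POMP, the chaperone of 20S maturation and outside the name rule, had -0.35, -0.52, -0.55 and -0.75 in the 4 DMSO libraries and was lost in none. PSMG1 pairs with PSMG2, and PSMG3 with PSMG4, to build the alpha ring. All 4 were lost in all 3 HCC1806 DMSO libraries, and only PSMG3 and PSMG4 in MIA PaCa-2. PSMG3 had changes of -4.04, -3.70 and -3.73 in HCC1806 and -3.06 in MIA PaCa-2, and PSMG4 had -2.78, -2.17 and -2.08 against -2.39. PSMG1 had -3.10, -3.19 and -2.96 in HCC1806 but -0.68 in MIA PaCa-2, and PSMG2 had -3.19, -1.85 and -2.14 against -0.28. Summed over its guides, PSMG2 went from 75.8 to 71.0 CPM in MIA PaCa-2 and from 68.2 to 16.9 CPM in the HCC1806 palbociclib screen. One PSMG4 guide, at chr6:3263972-3263991, was not lost in 3 of the 4 DMSO libraries, with 434 counts after 378 in the palbociclib screen, and it overlaps the guide at chr6:3263986-3264005, which went from 206 to 97.

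The 19S assembly chaperones PSMD5, PSMD9 and PSMD10 differed from those of the core. None of the 3 was lost in all HCC1806 DMSO libraries or in MIA PaCa-2, and only PSMD9 passed -1 anywhere among the DMSO libraries, at -1.24 in DMSO 1. PSMD5 had -0.60, 0.04, -0.17 and 0.19 in DMSO 1, DMSO 2, the palbociclib screen and MIA PaCa-2. PSMD9 had -1.24, -0.96, -0.90 and -0.77, the lowest of the 3 in every one of them except DMSO 2, where PSMD10 had -0.99. PSMD10 had -0.93, -0.99, -0.02 and -0.67, but its guide at chrX:107334745-107334764 could not show a loss of -1. That guide had just 14, 7 and 14 counts in the start libraries of the palbociclib, INX-315 and MIA PaCa-2 screens. The other PSMD10 guides had -3.73, -1.34 and -0.03 in DMSO 1 and -2.62, -0.43 and -1.45 in DMSO 2. None of them reached -1 in the palbociclib screen or MIA PaCa-2.

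The tissue-restricted 20S subunits kept most of their guides. PSMB8, PSMB9 and PSMB10 are the interferon-induced catalytic subunits of the immunoproteasome, PSMB11 belongs to the thymus and PSMA8 to the testis. In MIA PaCa-2 their changes lay between -0.05 and 0.45, and in DMSO of the HCC1806 palbociclib screen between -0.84 and 0.42. PSMB9 passed -1 in both DMSO libraries of the INX-315 screen, at -1.11 and -1.01, and PSMB11 in DMSO 1 alone, at -1.62 against 0.17 in DMSO 2. Each immunoproteasome subunit can be set beside the standard subunit it replaces, in DMSO 1, DMSO 2, the palbociclib screen and MIA PaCa-2. PSMB8 had -0.66, -0.49, -0.38 and 0.45, against -3.94, -3.19, -3.27 and -1.55 for PSMB5. PSMB9 had -1.11, -1.01, -0.84 and 0.38, against -1.72, -2.76, -3.15 and -1.48 for PSMB6. PSMB10 had -0.79, -0.05, -0.40 and -0.05, against -4.06, -4.46, -4.40 and -3.15 for PSMB7.

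The activators open the core without ubiquitin, PSME1 and PSME2 as the PA28 alpha and beta chains, PSME3 as PA28 gamma and PSME4 as PA200, and PSMF1 is an inhibitor of the core. None of these 5 genes was lost in all 3 HCC1806 DMSO libraries or in MIA PaCa-2. PSME3 had changes of -1.53, -0.69 and -1.33 in HCC1806 and -0.19 in MIA PaCa-2, and PSMF1 had -1.26, 0.03 and -1.36 against -0.11. PSME4 had -0.88, -0.81 and -0.65 against 0.27. PSME1 and PSME2 stayed between -0.27 and 0.41 in all DMSO libraries. PSMC3IP, the gene matched by name, had -0.96, -0.56, -0.83 and 0.40.

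The change over the 2 HCC1806 screens was tested on the summed guide counts of each gene, with 2 start and 3 DMSO libraries and the screen as a term in edgeR's quasi-likelihood test. Of 18050 genes none passed an adjusted p of 0.05, so 0% of all genes and none of the 49 were called lower. At an unadjusted p under 0.05, 1671 of all genes and 30 of the 49 were lower, and 31 and 0 were higher. The smallest adjusted p among proteasome genes was 0.112, and their median log2 change was -2.36 beside 0.03 for all genes. Without DMSO 1, 33 of the 49 and 1969 of all genes were called lower. DESeq2 on the same libraries called 29 of the 49 lower, beside 8.94% of all genes.

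By class, the genes called by DESeq2 were 25 of 31 standard subunits, 3 of 4 core assembly chaperones and PSME4, and no tissue-restricted subunit and no 19S assembly chaperone. In the edgeR fit PSMB7 had a log2 change of -8.07 ± 1.44 (SE, adjusted p = 0.112 by edgeR) and PSMA6 -7.68 ± 1.09 (adjusted p = 0.112 by edgeR). PSMB5 had -2.68 ± 0.84 and PSMB6 -1.69 ± 0.42. PSMB8 had -0.29 ± 0.32 and PSMB9 -0.08 ± 0.63. The PSMB9 guide at chr6:32825135-32825154 went from 326 counts at the start to 1033 in DMSO 1. By the median over guides PSMB9 had -1.11, -1.01 and -0.84 in DMSO 1, DMSO 2 and the palbociclib screen. PSMD11, with its single high guide in DMSO 1, had a fitted -0.62 ± 0.84.

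The change from the start was closer to 0 in MIA PaCa-2 for most standard subunits. The MIA PaCa-2 DMSO change was higher than that of all 3 HCC1806 DMSO libraries for 27 of 31 standard subunits and for 34.9% of all genes, the exceptions being PSMA2, PSMB3, PSMB4 and PSMD11. In an edgeR fit of the difference between the lines over 7 libraries no gene of 18051 passed an adjusted p of 0.05, and at an unadjusted p under 0.05 there were 105 higher and 7 lower in MIA PaCa-2. Among the 49 these were 3 and 0, and their median difference was 0.86 beside -0.02 for all genes. DESeq2 called 28 genes higher and 3 lower, none of them a proteasome gene. MIA PaCa-2 started at passage 1 rather than passage 0 and had a single DMSO library, so line and screen cannot be told apart.

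The standard subunits were depleted in the drug libraries as well. INX-315 1 and INX-315 2 lost 37 and 36 of the 49 genes, beside 14.1% and 14.0% of all genes, and the median of the 31 standard subunits was -3.71 and -3.85, between the values of DMSO 2 and DMSO 1. HCC1806 palbociclib lost 35 of the 49 beside 11.7%, with a median of -3.21 beside -3.48 in DMSO. MIA PaCa-2 INX-315 lost 33 beside 13.6%, with a median of -2.27, and MIA PaCa-2 palbociclib lost 30 beside 8.49%, with a median of -2.22, beside -2.24 in DMSO.

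The drug libraries were compared with DMSO by a rewritten DrugZ score, normZ, which adds up the guides of a gene after each guide's log2 ratio is divided by the spread of guides with a like count. Values under -2 were counted as depleted and over 2 as enriched, with no p-value, since 3 of the 4 comparisons had 1 library on each side. In HCC1806 INX-315, 2 of the 49 genes were depleted beside 2.76% of all genes, and none enriched beside 1.44%. This score pairs the libraries by replicate number, and without the pairing 4 of the 49 were depleted, PSMC2, PSMD11, PSME3 and PSMG3, beside 3.42% of all genes. In MIA PaCa-2 INX-315, none was depleted beside 2.88% and 2 were enriched beside 1.63%. In HCC1806 palbociclib, 1 was depleted beside 2.55% and none enriched beside 1.99%. In MIA PaCa-2 palbociclib, 1 was depleted beside 2.64% and 2 enriched beside 1.79%. In DMSO, 89 to 112 of the 196 guides had under 30 counts in the HCC1806 libraries and 34 in MIA PaCa-2. Scores without the guides under 30 DMSO counts are given further below, and the part of low counts was not tested otherwise.

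PSME3 had the lowest score with INX-315 in HCC1806, -2.79. Its guides had 29.2 and 48.7 CPM in DMSO and 15.8 and 13.5 CPM in INX-315. In MIA PaCa-2 they had 34.2 CPM in DMSO and 17.1 CPM in INX-315, with a score of -1.59. Without DMSO 2 the HCC1806 score was -1.29, and without DMSO 1 it was -3.68. PSMC2, an ATPase, had -2.40 in HCC1806, and without DMSO 1 -1.50. In DMSO 1 its guide at chr7:102988207-102988226 held 734 counts, against 50 in DMSO 2. In MIA PaCa-2 the PSMC2 score was 0.84.

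In MIA PaCa-2 INX-315 the enriched genes were PSMA2, with 2.38, and PSMB3, a structural beta subunit, with 2.21. For PSMA2, 3 of 4 guides were higher in INX-315, with 0 counts in DMSO and 549 in INX-315 at chr7:42967035-42967054, 76 and 238 at chr7:42961500-42961519, and 68 and 299 at chr7:42966203-42966222. The guide at chr7:42971746-42971765 went from 179 to 15. With guides of at least 30 DMSO counts only, the PSMA2 score was 0.89. For PSMB3, 3 of 4 guides were higher, the guide at chr17:36916778-36916797 going from 1041 to 4261 counts, that at chr17:36912142-36912161 from 44 to 176 and that at chr17:36909533-36909552 from 16 to 24, while that at chr17:36909464-36909483 went from 28 to 23. Against the start the changes in INX-315 were -0.78 for PSMA2 and -2.23 for PSMB3, beside -2.53 and -3.27 in DMSO. This INX-315 library was the one with the wide spread over olfactory receptor guides, whose part in these scores was not tested.

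With palbociclib, PSMD11 had -2.63 in HCC1806, with all 4 guides lower than in DMSO and 17.8 against 8.71 CPM in sum, and 0.23 in MIA PaCa-2. PSMC6, an ATPase, had -2.78 in MIA PaCa-2 and -0.13 in HCC1806, where its guides were already at 0 to 35 counts in DMSO. Its MIA PaCa-2 guides went from 400 to 47, from 312 to 55 and from 33 to 48 counts, and the fourth was at 0 in both. PSMD9 had 2.31 in MIA PaCa-2 and 0.56 in HCC1806, and PSME1 2.12 and -0.97.

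The INX-315 effect in HCC1806 was also fitted with edgeR on 2 libraries against 2. None of 18018 genes passed an adjusted p of 0.05, and at an unadjusted p under 0.05 there were 352 lower and 105 higher, of which 2 and 1 were proteasome genes. The median log2 difference of the 49 was -0.13 beside -0.02 for all genes. DESeq2 called 29 genes lower and none higher, none of them a proteasome gene. Without DMSO 1, edgeR called 5 of the 49 lower and 2 higher, among 1530 and 1238 of all genes, where the spread of the single DMSO library was taken from the INX-315 pair.

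Other genes of the pathway were taken from a list of 22 in the library. In the DMSO libraries, 15, 11, 11 and 4 of them were lost in DMSO 1, DMSO 2, the palbociclib screen and MIA PaCa-2, beside 43.9%, 13.4%, 13.9% and 8.69% of all genes. VCP, the p97 unfoldase that hands substrates to the proteasome, had changes of -4.34, -4.53, -4.13 and -2.61. DDI2 and NGLY1, which process the transcription factor NFE2L1 that drives proteasome genes, had -3.26, -3.73, -3.26 and -0.87, and -3.06, -1.53, -3.14 and -0.30. NFE2L1 itself had -2.72, -0.69, -0.17 and -0.40. USP14, a deubiquitinase of the 19S cap, had a normZ of -3.54 with INX-315 in HCC1806 and -0.48 in MIA PaCa-2, and UBA1, the ubiquitin-activating enzyme, had -2.06 with INX-315 and 2.06 with palbociclib in HCC1806. UCHL5, the other deubiquitinase of the cap, had -2.31 and UBQLN4, a ubiquitin shuttle, 2.09 with INX-315 in MIA PaCa-2. With palbociclib in MIA PaCa-2, NGLY1 had -2.40 and the shuttle RAD23B -2.71.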

How the data were processed

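Guide counts were deposited by the authors as raw counts, made per the labels and the methods by trimming reads with Trim Galore and counting with MAGeCK 5.9. The labels give total RNA as the molecule, whereas the methods describe genomic DNA. Normalized tables of the same libraries were not used. Proteasome genes, classes and gene lists were chosen with earlier results of these data known. Named genes were the catalytic and tissue-restricted subunits, the lowest and highest fitted dropout of each class, genes past a normZ of 2 in either direction and PSMC3IP; further genes and guides, and the counts of losses shared by the DMSO libraries and of changes higher in MIA PaCa-2 than in HCC1806, were chosen after seeing the data.

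CPM used each library's total. DrugZ was rewritten in Python 3.11.15 (scale 10000000, pseudocount 5, window 1000, step 25, guides with a start count above 0, HCC1806 INX-315 and DMSO libraries paired by number). Gene sums were tested with edgeR 4.0.16 (TMM, filterByExpr) and DESeq2 1.42.0 in R 4.3.3, with Benjamini-Hochberg adjustment. Both procedures were tested on simulated counts with a fixed spread, the same for every library. The libraries here differed in spread, so the simulation does not show how either procedure behaves with DMSO 1. Alternatives covered scaling, pseudocounts, filters, thresholds and each library left out. PCR counts carry no molecular identifiers, so the limit from 3 counts covers counting error only.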

Additional observations from a re-analysis of the deposited data

Results flagged for a closer look

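No group of replicate libraries had the 4 needed to flag a single library far from the others of its group. DMSO 1 of the HCC1806 INX-315 screen stood apart by its spread over olfactory receptor guides, as described above. Among the proteasome genes past a normZ of 2 in either direction, 4 had summed guide counts that moved in opposite directions in the 2 lines with the same drug. These differences between the lines were not tested, and MIA PaCa-2 had 1 library per arm. The other such genes, PSMA2 and PSME3 with INX-315 and PSMC6 and PSMD9 with palbociclib, were not counted as opposite. PSMA2 had 4.41 and -0.45 in the HCC1806 pairs and 1.94 in MIA PaCa-2. How often all genes past a normZ of 2 moved in opposite directions is not given here, so the count shows nothing particular to proteasome genes. With INX-315, PSMB3 had log2 ratios of -1.77 and -1.04 in the HCC1806 pairs and 2.22 in MIA PaCa-2, and PSMC2 had -3.25 and -0.86 against 0.54. With palbociclib, PSMD11 had -0.99 in HCC1806 and 0.28 in MIA PaCa-2, and PSME1 had -0.22 and 0.36.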

How the results depend on the processing

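Of the counts of proteasome genes under the alternatives, 143 stayed within 1.5 times the main count and 25 did not; the cause was not tested. In the edgeR fit of HCC1806 dropout, 0 genes were called lower, against 29 by DESeq2 and 0 to 33 with a library left out. There were 33 without DMSO 1, 23 without DMSO 2 and 5 without DMSO of the palbociclib screen. Beside them 1969, 1078 and 219 of 18050 genes were called lower. For INX-315 in HCC1806, leaving out a library gave 0 to 18 lower and 0 to 14 higher, the highest counts coming without DMSO 2, which leaves DMSO 1 alone. The calls without DMSO 2 were not particular to proteasome genes, since all genes were called at a like or higher share. That fit had a single DMSO library, so the spread came from the INX-315 pair and the calls show no drug effect. Its median log2 difference was -0.17 for the proteasome genes and 0.01 for all genes. Over the settings of the INX-315 fit, PSMA8 ranged from -0.54 to 0.49 and changed sign without DMSO 1. Scaling on olfactory receptor guides moved the HCC1806 dropout median of all genes from 0.03 to -0.19 and that of the proteasome genes from -2.36 to -2.63. The replicate block gave 0 lower and 0 higher among the proteasome genes and 7 lower among all genes. Libraries with the same number did not deviate together (correlation -0.01 over 18052 genes). The DMSO deviations include DMSO 1, which lay far from the others, so this correlation cannot show whether libraries of a number share an origin.

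In normZ for HCC1806 INX-315, a filter of 30 DMSO counts per guide left 32 proteasome genes. Of these 4 were depleted, beside 2.91% of the 17495 genes kept. With no replicate block 4 of the 49 were depleted beside 3.42% of all genes, and by the median log2 ratio 1 beside 2.28%. Leaving out a library gave 2 to 3 depleted, beside 2.71% to 2.96% of all genes. It gave 0 to 1 enriched, beside 222 to 262 of 18050 genes. In MIA PaCa-2 INX-315, 1 was depleted with a pseudocount of 1, with the 30-count filter and by the median ratio. Beside these were 3.09%, 2.89% and 2.63% of all genes. With the filter 1 was enriched, beside 284 of 18044 genes. In HCC1806 palbociclib, the filter left 44 proteasome genes, of which 2 were depleted, beside 2.77% of the genes kept. By the median ratio 3 were depleted beside 1.41% of all genes and 3 enriched beside 587 of 18052. In MIA PaCa-2 palbociclib, 2 were depleted by the median ratio beside 2.08% of all genes and 6 enriched beside 444 of 18051. For losses from the start, a pseudocount of 5 CPM and a threshold of -2 gave 20 and 19 proteasome genes in MIA PaCa-2 DMSO. Over all genes these settings gave 724 and 596 there. In MIA PaCa-2 INX-315 they gave 21 and 20 proteasome genes, beside 873 and 716 of all genes. The main setting gave 31 and 33 proteasome genes in the 2 libraries, beside 1569 and 2451 of all genes.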
